A study of Mus musculus with 9 samples.

Results

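The nuclear-encoded subunits of the mitochondrial respiratory chain were followed in the blood of mice after polytrauma (PT), with or without hemorrhagic shock (HS). Members were chosen by gene symbol alone, as symbols that begin with Ndufa, Ndufb, Ndufc, Ndufs or Ndufv and a digit, with Uqcr, with Cox4 to Cox8, or as Sdha, Sdhb, Sdhc and Sdhd. The assembly factors named Ndufaf were left out. A gene counted when a probe set of the array carried its symbol and no other, and where there were several, that with the highest mean of 9 arrays stood for the gene. This gave 64 members among 18194 measured genes, of which 35 belonged to complex I, 4 to complex II, 8 to complex III and 17 to complex IV. A further 7 symbols of the same kind (Ndufa11, Ndufa11b, Ndufb4b, Ndufb4c, Ndufs5-ps, Ndufs6 and Ndufs6b) were measured only by probe sets that carry several symbols and were not counted.

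All 9 animals were C57BL/6 mice of 8 to 9 weeks, with 1 array per animal and 3 animals per group. PT+HS mice received a blunt bilateral chest trauma, a closed fracture of the femur and an injury to the head, and from 1 h later blood was drawn until arterial pressure averaged 30 mmHg, which was held for 60 min. Fluid at 4 times the volume drawn followed within 30 min, with norepinephrine where pressure required it. PT mice had the same injuries without the bleeding, and both injured groups were sampled 4 h after the trauma. Ctrl mice were not injured and gave blood as soon as they were anesthetized. The injured mice stayed under anesthesia and received buprenorphine and catheters, so that trauma and these measures cannot be told apart in a comparison with Ctrl. Likewise, the bleeding and the treatment that followed it cannot be told apart between PT+HS and PT. Blood was stabilized whole, which means that leukocytes, platelets and immature red cells all contributed RNA. In such bulk samples, fewer cells of a type and less RNA per cell cannot be told apart.

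The respiratory chain passes electrons from nutrients to oxygen and pumps protons across the inner mitochondrial membrane. Complex I (NADH dehydrogenase) and complex II (succinate dehydrogenase, also an enzyme of the tricarboxylic acid cycle) feed ubiquinone, complex III (cytochrome bc1) hands the electrons to cytochrome c, and complex IV (cytochrome c oxidase) reduces oxygen. Most subunits are encoded in the nucleus, and a few in mitochondrial DNA. Among blood cells, lymphocytes, monocytes and platelets respire, mature neutrophils have few mitochondria and live mainly on glycolysis, and red cells lose their mitochondria as they mature.

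Nuclear respiratory chain genes are known for promoters with sites for NRF1, ETS factors of the GABPA type, YY1 and SP1, and the promoters of the members were searched for the letters of such sites. RefSeq promoter sequence of the mouse build GRCm38.p6 was matched for 51 of the 64 members, in windows of 300 bases that run from 250 bases before to 50 bases after the start site. The background was all 27025 gene symbols with such a window, on the array or not. A gene with several windows counted once, by a match in any of them. On either strand, the NRF1 letters (GCGCA, any base, then GCGC) were found in 9 of the 51 members (17.65%, against 5.188%). The ETS letters CCGGAAG were found in 11 (21.57%, against 9.928%). The YY1 letters AAGATGGC were found in 6 members, all of complex I (11.76%, against 3.19%), and the SP1 letters GGGCGG in 22 (43.14%, against 38.2%). Shown are the 120 bases before the start site of 5 members to which the results below return, with matches on either strand in capitals. Sdha and Sdhd were chosen because they were among the members furthest from the other PT mice in 1 PT animal, Ndufs3 for the lowest difference between PT and Ctrl, and Uqcr11 and Cox6b1 because PT and Ctrl mice did not overlap. Sdha lies on the minus strand (chr13:74350241-74350360) and holds 3 NRF1 matches. In this stretch, Sdhd (minus strand, chr9:50603850-50603969) holds an NRF1 match followed by an ETS match read from the opposite strand. In Ndufs3 (minus strand, chr2:90904722-90904841) the second of 2 SP1 matches shares bases with the ETS match that follows it. Uqcr11 (minus strand, chr10:80406822-80406941) and Cox6b1 (minus strand, chr7:30626115-30626234) each hold an ETS match. All 5 shown hold matches, but other members met the same reasons and were not shown. Of these, Ndufc2, Ndufa9, Ndufb5, Ndufs4, Ndufa6 and Uqcrfs1 held no match in their 120 bases. Ndufv2, Sdhb, Ndufa8 and Ndufa3 did, and so did Ndufa5 in 1 of its windows. These matches describe letters and not bound sites.
Sdha: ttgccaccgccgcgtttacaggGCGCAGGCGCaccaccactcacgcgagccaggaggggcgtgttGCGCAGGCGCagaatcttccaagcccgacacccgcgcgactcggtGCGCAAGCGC
Sdhd: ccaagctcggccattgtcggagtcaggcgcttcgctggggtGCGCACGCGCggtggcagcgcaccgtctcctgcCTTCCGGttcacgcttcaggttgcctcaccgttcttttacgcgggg
Ndufs3: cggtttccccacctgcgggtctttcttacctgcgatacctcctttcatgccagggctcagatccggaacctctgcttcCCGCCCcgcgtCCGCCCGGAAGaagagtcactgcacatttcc
Uqcr11: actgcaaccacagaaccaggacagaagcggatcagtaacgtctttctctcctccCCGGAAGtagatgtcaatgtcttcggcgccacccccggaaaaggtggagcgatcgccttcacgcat
Cox6b1: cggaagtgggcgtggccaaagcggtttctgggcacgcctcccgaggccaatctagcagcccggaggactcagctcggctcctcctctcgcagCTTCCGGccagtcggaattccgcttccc

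The deposited values are on the log2 scale, after robust multiarray average by the authors, so that a difference of 1 means 2-fold. A value of a probe set depends on its probes and was not compared with that of another. In the annotation 38 of the 64 members had several probe sets, and 7 stood on probe sets whose names end in x_at and 5 on s_at probe sets, which can share sequence with other genes. Of the members, 56 lay above the median level of all genes, and 8 below it (3 of complex I and 5 of complex IV). One library stood apart before any comparison was made. PT replicate 2 correlated with the other arrays at r of 0.9 to 0.944 over all genes, and values without it are given by complex and for a number of single genes.

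Over the 64 members, the median of each array relative to the mean of the Ctrl arrays was 0.00, 0.04 and -0.16 log2 in PT+HS mice, 0.09, -0.30 and 0.11 in PT mice and 0.00, -0.01 and 0.04 in Ctrl mice. The groups overlapped, and the lowest array by far was PT replicate 2. The median SD of a member was 0.16 among PT+HS mice, 0.33 among PT mice and 0.19 among Ctrl mice. It was 0.13 among the PT mice without replicate 2. Over all genes the median SD was 0.21, 0.31 and 0.22 in the same order, and 0.18 in PT without replicate 2.

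**Figure D1:**
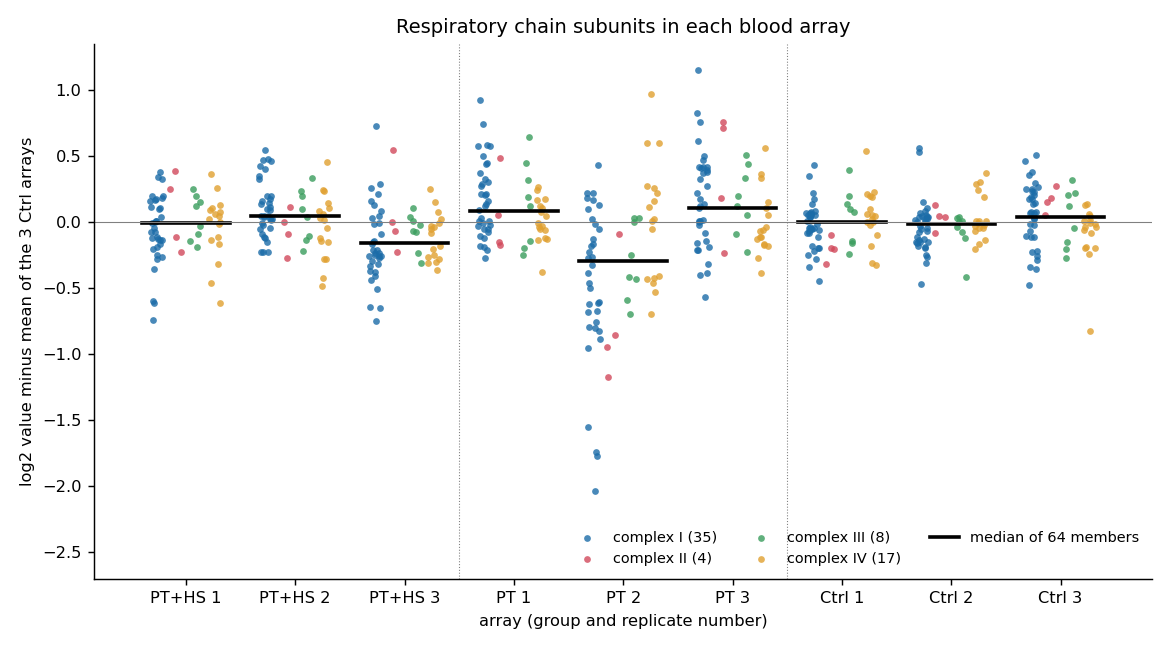
Each point is a member gene on 1 array, as its log2 value minus the mean of the 3 Ctrl arrays, coloured by complex, with a black bar at the median of the 64 members. The median lies between -0.16 and 0.11 on every array except PT 2, where it is -0.30 and several complex I and II genes lie far below the rest.

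No member passed the test in any of the 3 comparisons. The test was limma on all 9 arrays with Benjamini-Hochberg adjustment over 18194 genes, and the calls were read at an adjusted p under 0.05 and at the thresholds of the study's methods, an unadjusted p under 0.05 with a change of at least 1.5-fold. Between PT+HS and PT, the comparison that asks what the shock and its treatment add to the trauma, 0 of 64 members passed the adjusted p (0% of all genes) and 0 passed the study's thresholds (1.12% of all genes). For PT+HS against Ctrl the counts were 0 (0.0055% of all genes) and 0 (3.28%), and between PT and Ctrl 0 (0% of all genes) and 0 (3.67%). At an unadjusted p under 0.05 alone, the counts of members were also 0, against 2.87% of all genes between PT+HS and PT, 4.86% between PT+HS and Ctrl and 5.82% between PT and Ctrl. The t-test named in the methods passed 3, 1 and 3 members at an unadjusted p under 0.05 in the same order of comparisons. Of all 18194 genes it passed 564, 1339 and 846 there. At the study's thresholds it passed 0 members, against 76, 542 and 293 of all genes. After adjustment it passed 0 members and 0 genes.

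The members' differences were small in both directions. Between PT+HS and PT, 35 members were higher and 29 lower, with a median of 0.02 log2 and a range of -0.44 to 0.49 (median over all genes -0.003). For PT+HS against Ctrl, 24 were higher and 40 lower, with a median of -0.04 and a range of -0.43 to 0.36 (all genes -0.01). Without PT+HS replicate 3 these were 34 and 30, with a median of 0.03, and after repeated quantile normalization 32 and 32. Between PT and Ctrl, 26 were higher and 38 lower, with a median of -0.07 and a range of -0.72 to 0.51 (all genes -0.0003). Of all genes, 8967, 8625 and 9086 were higher and 9227, 9569 and 9108 lower in the 3 comparisons. The 9097 genes above the median level had medians of 0.02, -0.04 and -0.05 in the same order. For the 56 members above that level the medians were 0.02, -0.04 and -0.08. A difference of 1.5-fold at any p was reached by 0 members between PT+HS and PT (2.37% of all genes), 0 between PT+HS and Ctrl (5.56%) and 1 between PT and Ctrl (6.21%), which was Ndufs3.

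A difference that misses the threshold can still be there, so the intervals were read as well. The 95% interval lay within 2-fold either way for 55 of 64 members in each comparison (82.9%, 81% and 80% of all genes, in the same order). Within 1.5-fold either way it lay for 28 members between PT+HS and PT, 26 between PT+HS and Ctrl and 20 between PT and Ctrl, against 33%, 32.8% and 31.6% of all genes. The median half-width of a member's interval was 0.46 log2. For most members, therefore, the interval left out a 2-fold difference, and for over 30 members in each comparison it held a 1.5-fold difference.

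**Figure D2:**
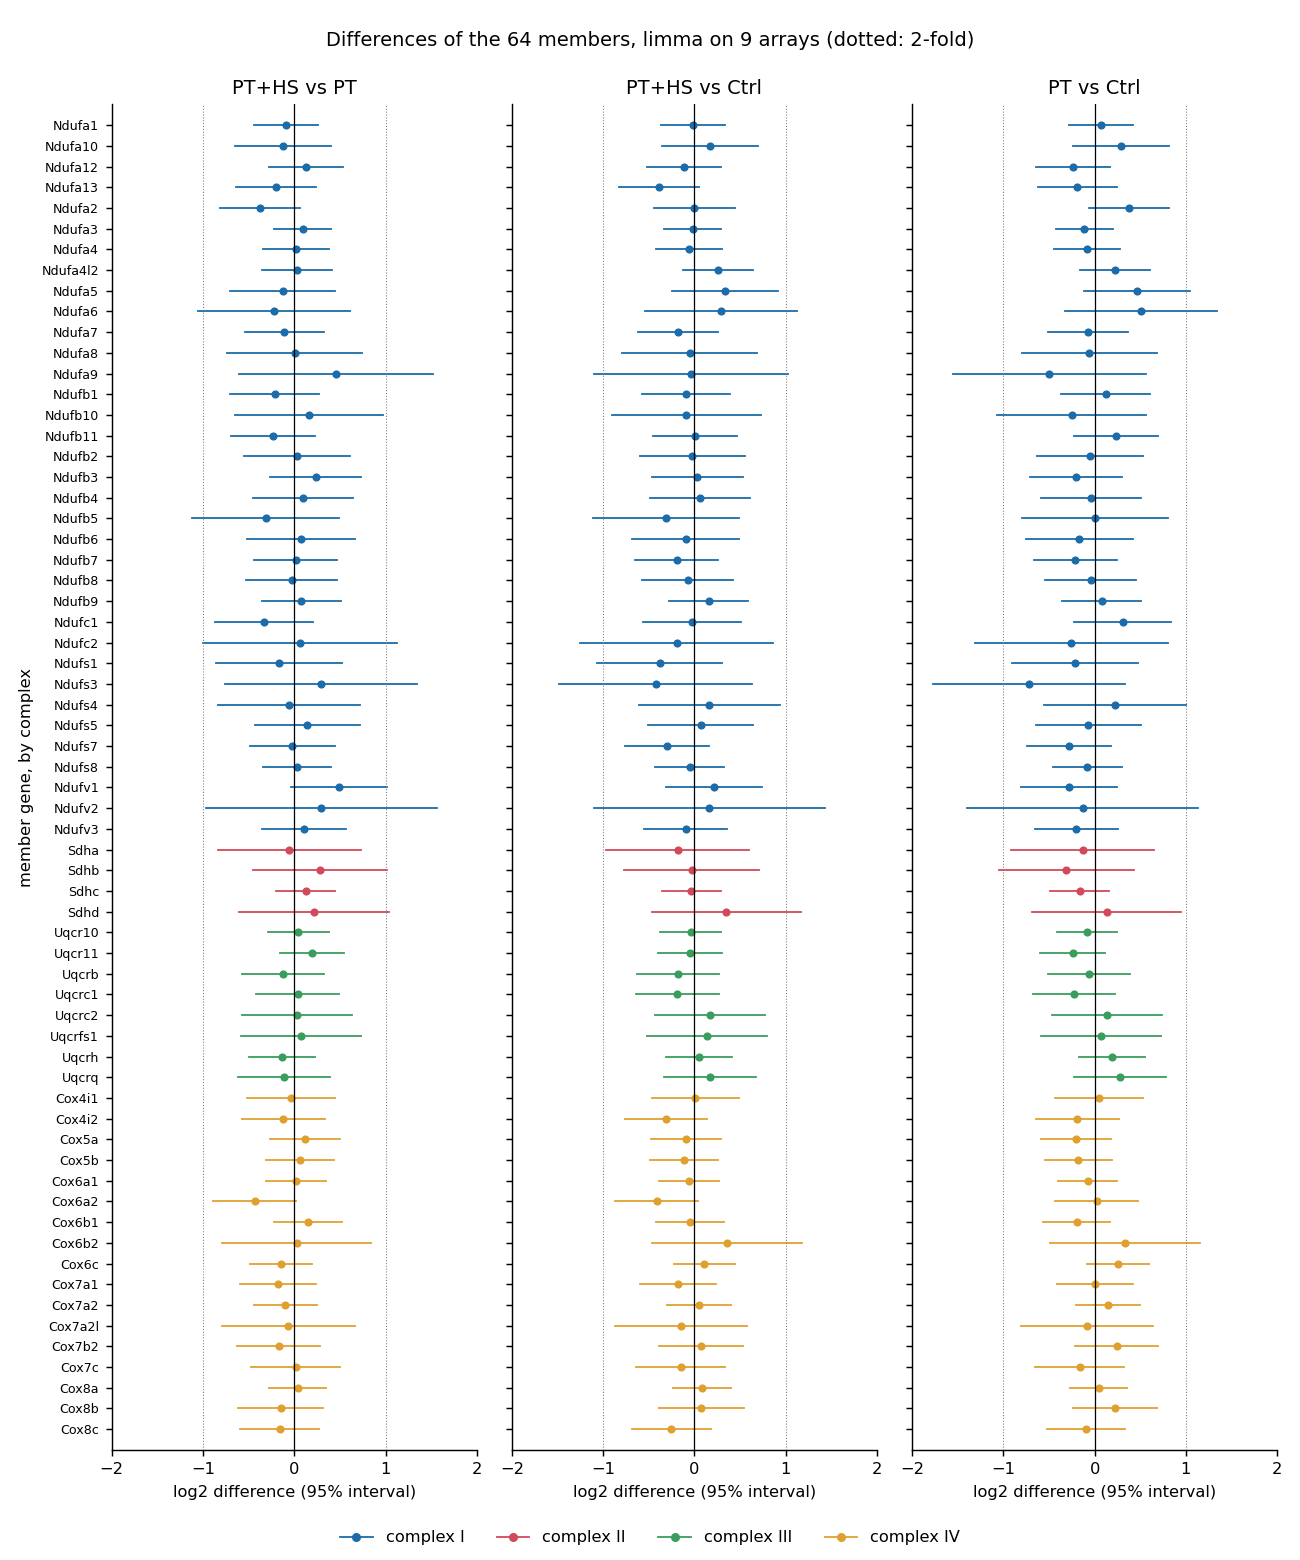
Points are log2 differences of the 64 members with 95% intervals from limma on 9 arrays, in the 3 comparisons from left to right, with genes ordered and coloured by complex and dotted lines at 2-fold. Every interval includes 0, and the widest intervals belong to complex I and II genes such as Ndufv2, Ndufs3, Ndufa9 and Ndufc2.

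Members whose 3 animals in one group all lay above or below those of the other were few. Between PT+HS and PT, Uqcr11 lay higher (3.61% of all genes did) and Ndufa2, Cox6a2 and Cox7a2 lay lower (3.56%). In PT+HS against Ctrl, 0 members lay higher (6.55%) and 3 lay lower (6.68%), namely Ndufs7, Cox6a2 and Cox8c. Between PT and Ctrl, Ndufa4l2, Ndufa5 and Cox6c lay higher (4.32%) and Ndufa3, Uqcr11 and Cox6b1 lay lower (5.12%). In either direction together these were 4 members between PT+HS and PT (7.17%), 3 between PT+HS and Ctrl (13.2%) and 6 between PT and Ctrl (9.44%). The shares of members were thus near those of all genes or below them.

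Complex I takes electrons from NADH in its peripheral arm, which is built of core and of smaller accessory subunits. The arm's core subunits are named Ndufs or Ndufv, but some accessory subunits carry these names too. The 35 members of complex I had median differences of 0.02 between PT+HS and PT, -0.04 between PT+HS and Ctrl and -0.07 between PT and Ctrl. Of the 9 Ndufs and Ndufv genes, 6 were higher and 3 lower between PT+HS and PT (median 0.11), 4 were higher and 5 lower between PT+HS and Ctrl (median -0.05), and 1 was higher and 8 lower between PT and Ctrl (median -0.20). Without PT replicate 2, 2 of these 9 genes were higher and 7 lower between PT+HS and PT (median -0.22), and 5 were higher and 4 lower between PT and Ctrl (median 0.01). The median of all complex I members was then -0.19 between PT+HS and PT and 0.14 between PT and Ctrl, so that both directions turned.

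Ndufv1, the subunit that binds NADH and flavin, had 6.74, 6.82 and 6.25 in PT+HS mice, 6.29, 5.64 and 6.41 in PT mice and 6.34, 6.42 and 6.43 in Ctrl mice. Its difference of 0.49 between PT+HS and PT (95% interval -0.03 to 1.02, unadjusted p from limma 0.0638, adjusted p 0.99997) was the highest of any member in that comparison. Replicate 3 of the PT+HS group lay among the PT values, and of the gene's 3 probe sets the lowest gave -0.18. Without PT replicate 2 the difference was 0.25, and it passed the study's thresholds at 0.64 without PT replicate 3 (3.42% of all genes passed) and at 0.67 without PT+HS replicate 3 (1.33%).

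Ndufs3, a core subunit of the peripheral arm, had 5.43, 5.94 and 5.85 in PT+HS mice, 5.90, 4.13 and 6.30 in PT mice and 5.92, 6.12 and 6.46 in Ctrl mice. The low group mean of PT came from 1 animal, replicate 2, and the other PT values lay within or near those of the other groups. The difference between PT and Ctrl was -0.72 (interval -1.77 to 0.33, unadjusted p 0.156 from limma), and it was -0.07 without PT replicate 2. Without PT replicate 3 it was -1.15 and passed the study's thresholds, as did 8.21% of all genes. Ndufs7, which carries the last iron-sulfur cluster before ubiquinone, had 7.08, 7.10 and 6.89 in PT+HS mice, against 7.24, 7.17 and 7.56 in Ctrl mice. The groups did not overlap, and the difference of -0.30 (interval -0.77 to 0.16) was shared in direction by the second probe set at -0.18. PT mice had 7.14, 6.65 and 7.33 for Ndufs7.

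Values for other Ndufs and Ndufv genes follow. Ndufs1, the largest subunit of the peripheral arm, differed by -0.17 between PT+HS and PT, -0.38 between PT+HS and Ctrl and -0.21 between PT and Ctrl. Ndufs8 differed by 0.03, -0.05 and -0.08 in the same order, and the accessory subunit Ndufv3 by 0.11, -0.10 and -0.20. Ndufv2 had 8.15, 7.96 and 7.67 in PT+HS mice, 8.35, 6.02 and 8.53 in PT mice and 7.85, 7.29 and 8.15 in Ctrl mice, the widest spread within the PT group of any member.

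Accessory subunits named Ndufa sit mainly in the peripheral arm and at its junction with the membrane. Ndufa2, an accessory subunit of the peripheral arm, had 7.34, 7.34 and 7.46 in PT+HS mice, 7.88, 7.60 and 7.79 in PT mice and 7.73, 7.38 and 7.03 in Ctrl mice. All PT+HS values lay below all PT values, with a difference of -0.38 (interval -0.82 to 0.06, unadjusted p 0.0848 from limma). Between PT and Ctrl the difference was 0.38 (interval -0.06 to 0.82), and PT+HS and Ctrl were nearly equal on average, with Ctrl mice spread more widely than either injured group. The gene has only an s_at probe set.

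Ndufa5 had 4.82, 5.47 and 5.73 in PT+HS mice, 5.13, 5.44 and 5.83 in PT mice and 5.06, 5.05 and 4.89 in Ctrl mice. Every PT value lay above every Ctrl value, with a difference of 0.46 (interval -0.12 to 1.04) and 0.39 at the other probe set, whereas replicate 1 of the PT+HS group was the lowest of all 9 animals. Without that animal the difference between PT+HS and Ctrl was 0.60 and passed the study's thresholds (2.67% of all genes passed). Ndufa13, also known as the cell death regulator GRIM-19, had 8.22, 8.33 and 7.73 in PT+HS mice, 8.29, 8.31 and 8.27 in PT mice and 8.26, 8.52 and 8.66 in Ctrl mice. Its difference between PT+HS and Ctrl was -0.39 (interval -0.82 to 0.05, unadjusted p 0.0765 from limma), and it was -0.21 without PT+HS replicate 3, the lowest animal.

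Ndufa4, now counted by many as a subunit of complex IV, differed by 0.02, -0.06 and -0.08 in the 3 comparisons, with all 9 values between 8.73 and 9.14. Its paralog Ndufa4l2, which hypoxia is known to induce in many cell types, had 4.12, 4.66 and 4.33 in PT+HS mice, 4.39, 4.30 and 4.34 in PT mice and 4.07, 4.09 and 4.19 in Ctrl mice. PT and Ctrl did not overlap (difference 0.23, interval -0.16 to 0.61), and PT+HS differed from Ctrl by 0.26 (interval -0.13 to 0.64).

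Subunits named Ndufb and Ndufc build the membrane arm, through which protons pass. Of these 13 genes 8 were higher and 5 lower between PT+HS and PT, 4 were higher and 9 lower between PT+HS and Ctrl, and 5 were higher and 8 lower between PT and Ctrl, with medians of 0.03, -0.07 and -0.04. Without PT replicate 2, 3 were higher and 10 lower between PT+HS and PT (median -0.24), and 10 were higher and 3 lower between PT and Ctrl (median 0.17). Ndufb11 had 9.89, 9.91 and 9.34 in PT+HS mice, 10.003, 9.73 and 10.11 in PT mice and 9.67, 9.56 and 9.90 in Ctrl mice, and PT+HS differed from PT by -0.23 (interval -0.69 to 0.22). Ndufc1 had 7.03, 6.59 and 6.41 in PT+HS mice, 7.28, 6.58 and 7.18 in PT mice and 6.76, 6.86 and 6.49 in Ctrl mice. Its difference of -0.33 between PT+HS and PT (interval -0.87 to 0.20) stood against 0.14 at its other probe set, and it was -0.55 without PT replicate 2 (unadjusted p 0.0303 from limma), short of 1.5-fold.

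Complex II is the only complex here whose subunits are all encoded in the nucleus. Sdha, the flavoprotein that oxidizes succinate, had 7.95, 8.09 and 7.95 in PT+HS mice, 8.03, 7.24 and 8.89 in PT mice and 7.86, 8.31 and 8.36 in Ctrl mice. The PT group held both the lowest and the highest of the 9 values. Differences were -0.05 between PT+HS and PT (interval -0.84 to 0.73), -0.18 between PT+HS and Ctrl (-0.97 to 0.60) and -0.13 between PT and Ctrl (-0.91 to 0.65).

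Sdhb, the iron-sulfur subunit, had 7.39, 6.87 and 7.07 in PT+HS mice, 7.20, 5.97 and 7.32 in PT mice and 6.94, 7.19 and 7.29 in Ctrl mice. PT replicate 2 lay below all other animals, which otherwise overlapped. The differences were 0.28 (-0.46 to 1.02), -0.03 (-0.77 to 0.71) and -0.31 (-1.05 to 0.43) in the same order of comparisons. Sdhd, one of the pair of membrane anchors that hold the ubiquinone site, had 7.04, 6.76 and 7.19 in PT+HS mice, 7.13, 5.79 and 7.41 in PT mice and 6.45, 6.57 and 6.92 in Ctrl mice. It too was lowest in PT replicate 2, and its differences were 0.22 (-0.60 to 1.04), 0.35 (-0.47 to 1.17) and 0.13 (-0.69 to 0.95).

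Sdhc, the other anchor, varied least. It had 7.35, 7.47 and 7.47 in PT+HS mice, 7.29, 7.38 and 7.24 in PT mice and 7.37, 7.51 and 7.52 in Ctrl mice, and its differences were 0.13 (-0.20 to 0.45), -0.04 (-0.36 to 0.29) and -0.16 (-0.49 to 0.16). PT replicate 2 was the highest PT value of Sdhc, so that the 4 genes of the complex did not move as 1 in that animal. Without PT replicate 2, Sdha, Sdhb and Sdhd differed by -0.46, -0.15 and -0.27 between PT+HS and PT, and by 0.28, 0.12 and 0.62 between PT and Ctrl. The direction of every one of these was thereby turned except for Sdha between PT+HS and PT and Sdhd between PT and Ctrl.

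Complex III passes electrons from ubiquinol to cytochrome c, and its members differed little over all 9 arrays. The 8 members ranged from -0.14 to 0.19 between PT+HS and PT, -0.19 to 0.17 between PT+HS and Ctrl and -0.24 to 0.28 between PT and Ctrl, and all 8 intervals lay within 2-fold in each comparison. PT replicate 2 was below the other PT mice in 7 of 8, and without it the median was -0.23 between PT+HS and PT and 0.19 between PT and Ctrl, against 0.03 and 0.00 with it. Uqcr11, a small accessory subunit, had 7.74, 7.73 and 7.87 in PT+HS mice, 7.58, 7.58 and 7.60 in PT mice and 8.03, 7.83 and 7.63 in Ctrl mice. The 3 PT animals lay close together and below all others. PT+HS differed from PT by 0.19 (interval -0.16 to 0.54, unadjusted p 0.253 from limma) and PT from Ctrl by -0.24 (-0.59 to 0.11, unadjusted p 0.158 from limma).

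The core proteins Uqcrc1 and Uqcrc2 differed by 0.04 and 0.03 between PT+HS and PT, by -0.19 and 0.17 between PT+HS and Ctrl and by -0.22 and 0.14 between PT and Ctrl. The Rieske iron-sulfur protein Uqcrfs1, which carries electrons toward cytochrome c1, differed by 0.07, 0.14 and 0.07 in the 3 comparisons. Without PT replicate 2, Uqcrfs1 was at -0.31 between PT+HS and PT and at 0.45 between PT and Ctrl (unadjusted p 0.0366 from limma), short of 1.5-fold. Uqcrb, a small subunit near the ubiquinone site, had 10.80, 10.62 and 10.53 in PT+HS mice, against 10.69, 10.76 and 11.05 in Ctrl mice, with a difference of -0.18 (interval -0.63 to 0.26). Uqcrh, the hinge protein, differed by -0.14, 0.05 and 0.19, and Uqcrq by -0.11, 0.17 and 0.28, of which the last had the interval -0.22 to 0.78.

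Complex IV has several subunits that exist as tissue forms, and the array measured both kinds. Of its 17 members 7 were higher and 10 lower between PT+HS and PT (median -0.06), 7 and 10 between PT+HS and Ctrl (median -0.06) and 9 and 8 between PT and Ctrl (median 0.00). Every interval lay within 2-fold between PT+HS and PT, and 16 of 17 did so in each of the other comparisons.

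Cox6a2, the heart and muscle form of subunit VIa, had 5.37, 5.41 and 5.47 in PT+HS mice, 5.95, 6.05 and 5.56 in PT mice and 5.50, 6.14 and 5.85 in Ctrl mice. The PT+HS values were close together and below all others. The difference was -0.44 from PT (interval -0.89 to 0.02, unadjusted p 0.0597 from limma, adjusted p 0.99997) and -0.41 from Ctrl (-0.87 to 0.04, unadjusted p 0.0715, adjusted p 0.999), the smallest p of any member in both comparisons. The gene's other probe set gave 0.01 and 0.11. Cox6a1, the form of most tissues, had all 9 values between 12.22 and 12.45 and differed by 0.02, -0.06 and -0.08.

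Cox6b1, the general form of subunit VIb, had 10.20, 10.17 and 9.96 in PT+HS mice, 10.11, 9.73 and 10.05 in PT mice and 10.22, 10.13 and 10.12 in Ctrl mice. PT lay below Ctrl without overlap, at a difference of -0.20 (interval -0.57 to 0.17), which was -0.08 without PT replicate 2. Its testis form Cox6b2 had 9.00, 9.10 and 8.89 in PT+HS mice, 8.72, 9.61 and 8.58 in PT mice and 9.18, 8.93 and 7.81 in Ctrl mice. PT replicate 2 was the highest and Ctrl replicate 3 the lowest of these, and the differences were 0.03, 0.36 (interval between PT+HS and Ctrl -0.46 to 1.17) and 0.33.

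Cox6c, a small subunit in the membrane, had 11.22, 11.36 and 11.12 in PT+HS mice, 11.39, 11.29 and 11.46 in PT mice and 11.23, 11.11 and 11.04 in Ctrl mice. All PT values lay above all Ctrl values, at 0.25 (interval -0.08 to 0.59, unadjusted p 0.123 from limma), and the other probe set gave 0.31. Cox7a2, the general form of subunit VIIa, had 10.65, 10.68 and 10.54 in PT+HS mice, 10.75, 10.69 and 10.73 in PT mice and 10.76, 10.56 and 10.39 in Ctrl mice. PT+HS lay below PT without overlap, but only by 0.10 on average (difference -0.10, interval -0.45 to 0.25).

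The remaining tissue forms gave these values. The muscle form Cox7a1 differed by -0.18, -0.18 and 0.00 and lay between 2.59 and 3.13 on all arrays, near the low end of the scale. Cox7a2l, a supercomplex assembly factor of which C57BL/6 mice are known to carry a short form, differed by -0.06, -0.15 and -0.08. Cox4i1, the general form of subunit IV, differed by -0.04, 0.01 and 0.05, and Cox4i2, the lung form that hypoxia is known to induce, by -0.12, -0.31 and -0.19.

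Cox8a differed by 0.04, 0.08 and 0.04, the muscle form Cox8b by -0.15, 0.07 and 0.22, and the testis form Cox7b2 by -0.17, 0.07 and 0.24. Cox8c, also a testis form, had 6.47, 6.64 and 6.48 in PT+HS mice, against 6.69, 6.74 and 6.92 in Ctrl mice, without overlap. That difference of -0.25 (interval -0.68 to 0.18) stood against 0.21 at the other probe set. Cox5a, a subunit on the matrix side of the complex, had 11.38, 11.10 and 11.00 in PT+HS mice, 11.22, 10.83 and 11.09 in PT mice and 11.30, 11.26 and 11.20 in Ctrl mice, and PT differed from Ctrl by -0.21 (interval -0.59 to 0.18), or by -0.10 without PT replicate 2.

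**Figure D3:**
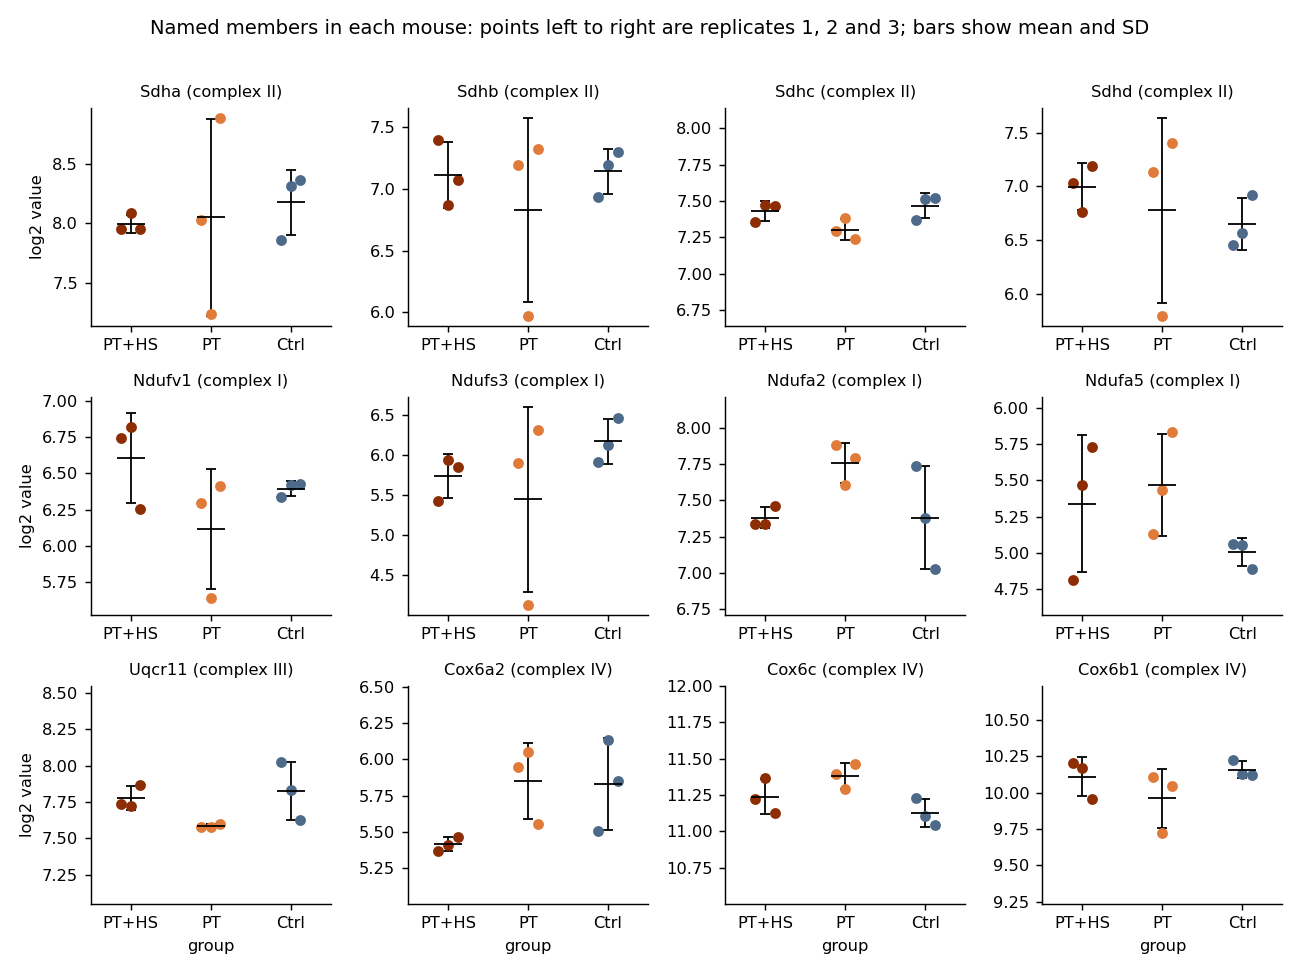
Log2 values of 12 named members in each mouse, with PT+HS, PT and Ctrl from left to right, points for replicates 1 to 3 and bars for the mean and SD. PT replicate 2 is the lowest of all animals for Sdha, Sdhb, Sdhd, Ndufv1, Ndufs3 and Cox6b1, and the PT+HS animals lie close together below the rest for Cox6a2.

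The members' spread in the PT group came largely from replicate 2, and that of all genes also fell without it. That array held the lowest of the 9 values in 30 of 64 members (46.9%), against 23.2% of all genes, and in 29 of the 56 members above the median level (51.8%), against 37.8% of genes above that level. Its distance from the mean of the other PT mice had a median of -0.40 over the members and 0.03 over all genes. By complex the median was -0.59 for I, -1.26 for II, -0.48 for III and -0.03 for IV. The distance was at least 1 log2 downward in 12 members (18.75%, against 12.1% of all genes), and these were Ndufv2, Ndufs3, Ndufc2, Ndufa9, Sdhd, Ndufb5, Ndufs4, Ndufa6, Sdhb, Ndufa8, Sdha and Uqcrfs1.

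The distance depended on the level of the gene, in members and in other genes alike. Members with a mean of 6 to 9 log2 had a median distance of -0.64, against -0.67 for all genes of that band, and members of 9 and over had -0.19, against -0.30. Under 6, the medians were -0.06 and 0.10. Within a band, then, the members lay close to the genes around them.

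Without PT replicate 2, members past the study's thresholds appeared, and their share was near that of all genes. Between PT and Ctrl 4 members passed, all higher in PT, where 6.14% of all genes passed. Of those 1117 genes, 768 were higher in PT as well. The 4 members are named next. Ndufa6, an accessory subunit that binds acyl carrier protein, was at 0.95 (interval 0.35 to 1.55, adjusted p from limma 0.269). Ndufs4, whose loss gives mice a Leigh-like disease, was at 0.67, the core subunit Ndufv2 at 0.67 and Sdhd at 0.62. Over all members, 40 were higher and 24 lower, with a median of 0.07.

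Between PT+HS and PT, leaving out that array gave 3 members past the thresholds, all lower in PT+HS, where 4.7% of all genes passed. Of those 855 genes, 603 were lower in PT+HS as well. The 3 members were Ndufb5 at -0.79 (interval -1.26 to -0.32, adjusted p from limma 0.55), Ndufa6 at -0.66 and Ndufc2 at -0.59, all of complex I. Of all members 18 were then higher and 46 lower, with a median of -0.15. None passed an adjusted p under 0.05 in either comparison, in which 0% of all genes between PT+HS and PT and 0.258% between PT and Ctrl did. At an unadjusted p under 0.05 alone, 5 members passed between PT+HS and PT (7.39% of all genes) and 7 between PT and Ctrl (9.02%). In PT+HS against Ctrl, where that array enters only through the shared spread, 0 members passed the adjusted p (0.291%), the study's thresholds (4.57%) or an unadjusted p under 0.05 (8.08%). The members called here were named after their values had been seen. On all 9 arrays, the probe sets of Ndufb5 ran from -0.32 to 0.23 between PT+HS and PT, and those of Ndufc2 from -0.30 to 0.06.

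**Figure D4:**
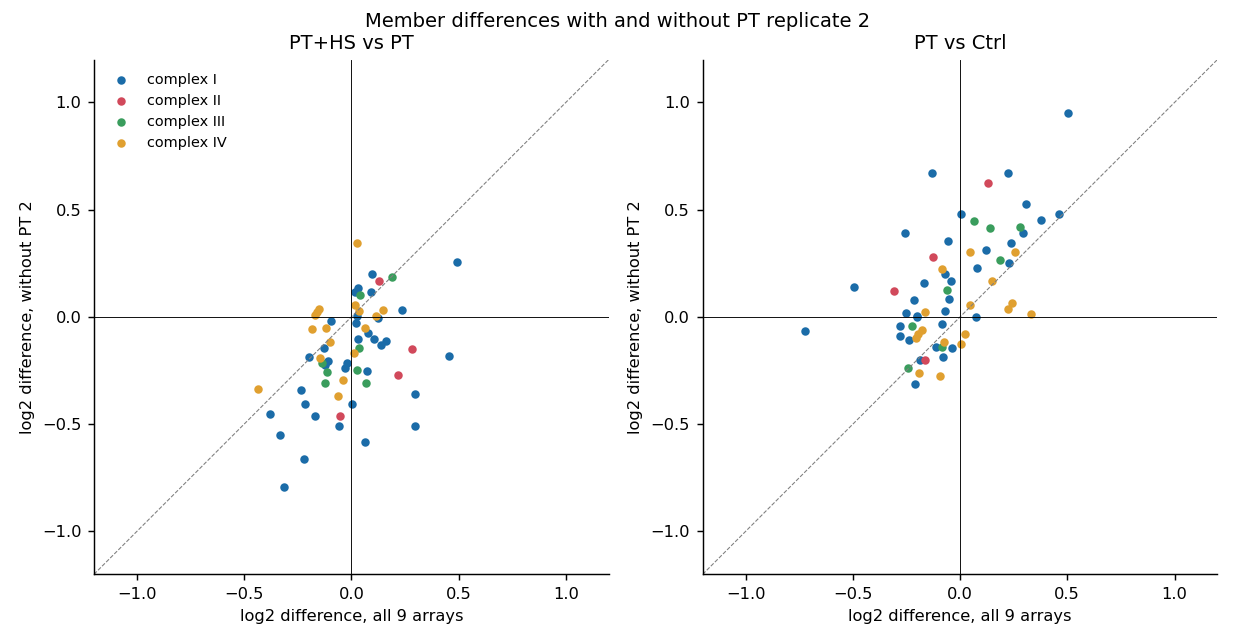
Each point is a member, with its log2 difference over all 9 arrays on the horizontal axis and its difference without PT replicate 2 on the vertical axis, for PT+HS against PT (left) and PT against Ctrl (right), and a dashed line where both are equal. Most complex I, II and III genes lie below the line on the left and above it on the right, and the median moves to -0.15 on the left and to 0.07 on the right.

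Members of a complex varied together within groups to a limited degree. The mean correlation between pairs of members, of their deviations from the group means on 9 arrays, was 0.29 for complex I, 0.24 for complex II, 0.18 for complex III and -0.01 for complex IV. Over all genes it was 0.00. Those genes span all levels, whereas 56 of the 64 members lay above the median level, and genes of like level were not taken. In PT replicate 2 all genes of 6 to 9 log2 had a median distance of -0.67 from the other PT mice. The value of 0.00 is therefore no like background. On the 8 arrays without PT replicate 2 the mean correlation was 0.16, 0.32, -0.02 and 0.03 by complex. These are descriptions over few arrays that share the same 3 group means.

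Probe sets of the same member often disagreed. Of the 38 members with several probe sets, all of a gene's probe sets pointed the same way in 14 between PT+HS and PT, in 16 between PT+HS and Ctrl and in 20 between PT and Ctrl. Sdhc, Cox6c, Cox7a2, Ndufa5 and Uqcrh were among those whose probe sets shared a direction between PT+HS and PT.

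Other mitochondrial genes, taken from lists written for this purpose, gave few calls as well. Of 45 measured assembly factors of the complexes, 1 passed the study's thresholds by limma in any comparison, that of PT+HS with Ctrl. There 3.28% of all genes passed, and by the t-test named in the methods 2 of the factors and 542 of 18194 genes did. The factor called by limma was Lrpprc, which stabilizes mitochondrial messenger RNA. It had 5.68, 5.50 and 5.27 in PT+HS mice, against 5.98, 6.00 and 6.62 in Ctrl mice. Lrpprc fell by 0.72 log2 at these thresholds (unadjusted p 0.0136, adjusted p from limma 0.804). It was at -0.51 without Ctrl replicate 3 and at -0.61 without PT+HS replicate 3, short of the thresholds in both (unadjusted p 0.0594 and 0.0534 from limma). Coa5, an assembly factor of complex IV, differed by -0.56 between PT and Ctrl (unadjusted p 0.0287, adjusted p from limma 0.803), just short of 1.5-fold, and by -0.32 without PT replicate 2.

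Of 18 ATP synthase subunits, which use the proton gradient to make ATP, 1 passed the study's thresholds by limma, between PT and Ctrl (3.67% of all genes passed there), and 0 did by the t-test named in the methods. Atp5j, a subunit of the peripheral stalk, had 8.37, 6.77 and 7.26 in PT mice, against 8.63, 8.62 and 8.52 in Ctrl mice, and fell by 1.12 log2 (adjusted p from limma 0.798). In PT+HS mice it had 7.04, 8.34 and 8.33, so that 1 low animal stood in that group and 2 in PT. The call of Atp5j was lost without any 1 Ctrl animal (-1.16 without replicate 3) and without PT replicate 2 (-0.77) or 3 (-1.02), and array weights gave -0.39. Atp5e, the epsilon subunit, had 8.59, 8.87 and 8.35 in PT+HS mice, against 9.08, 9.10 and 9.07 in Ctrl mice, a difference of -0.48 (adjusted p 0.821). The subunits as a list were lower in 14 of 18 between PT+HS and Ctrl, with a median of -0.11. There 1 of them reached an unadjusted p under 0.05 by limma (4.86% of all genes). By the t-test named in the methods 2 did (1339 of 18194 genes). The study's thresholds were reached by 0 (3.28% of all genes by limma, 542 genes by the t-test).

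Among 9 carriers and entry points that feed ubiquinone or cytochrome c, 1 passed the study's thresholds by limma. It was Gpd2, between PT and Ctrl, where 3.67% of all genes passed. This mitochondrial glycerol-3-phosphate dehydrogenase had 4.76, 4.65 and 4.94 in PT+HS mice, 4.30, 3.94 and 4.63 in PT mice and 5.19, 5.34 and 5.48 in Ctrl mice. The 3 groups did not overlap. Gpd2 fell by 1.05 log2 in PT relative to Ctrl (adjusted p from limma 0.343), and between PT+HS and PT it differed by 0.50 (unadjusted p 0.0334, adjusted p 0.99997). As the mean of its probe sets Gpd2 differed by -0.28 between PT and Ctrl and did not pass. Sqor, which passes electrons from sulfide to ubiquinone, differed by 1.04 between PT+HS and Ctrl (adjusted p 0.999), with 6.96, 5.66 and 6.80 in PT+HS mice, against 6.36, 4.66 and 5.28 in Ctrl mice.

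None of 13 tricarboxylic acid cycle enzymes and none of 14 regulators of mitochondrial biogenesis passed the study's thresholds, by limma or by the t-test named in the methods. At an unadjusted p under 0.05 from limma, 1 enzyme and 0 regulators did so, the enzyme between PT+HS and Ctrl (4.86% of all genes). It was Idh3g, a subunit of isocitrate dehydrogenase, at -0.38 (unadjusted p 0.0459). Dlst, a part of the oxoglutarate dehydrogenase complex, differed by -0.61 between PT and Ctrl, and by -0.29 without PT replicate 2. Twnk, the helicase of mitochondrial DNA, differed by 0.42 between PT+HS and Ctrl, and Ppargc1a, a coactivator of respiratory chain genes, by 0.30 between PT+HS and PT. Of 13 protein genes of mitochondrial DNA only the complex I subunit ND5 had a probe set of its own. ND5 had 10.71, 10.63 and 10.70 in PT+HS mice, 10.96, 10.59 and 11.55 in PT mice and 11.01, 11.13 and 11.38 in Ctrl mice, and PT+HS lay below Ctrl without overlap at -0.49 (interval -1.02 to 0.03).

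By limma, markers of several cell types passed the study's thresholds where no member did. Of all genes, 1.12% passed between PT+HS and PT, 3.28% between PT+HS and Ctrl and 3.67% between PT and Ctrl. The mean log2 level of 14 neutrophil markers ranged from 7.72 to 8.97 in PT+HS mice, 7.30 to 8.70 in PT mice and 6.31 to 7.55 in Ctrl mice, and 9 and 7 of them were past the study's thresholds upward against Ctrl in PT+HS and PT mice. That of 11 B cell markers ranged from 5.90 to 6.42 in PT+HS mice, 5.55 to 7.24 in PT mice and 7.20 to 8.14 in Ctrl mice, and 10 were past the thresholds downward in both comparisons. Of 9 NK cell markers, 5 passed downward between PT and Ctrl and 2 between PT+HS and Ctrl, with 1 upward between PT+HS and PT. Of 10 monocyte markers, 3 passed upward and 4 downward between PT and Ctrl, 3 upward and 1 downward between PT+HS and Ctrl, and 3 upward between PT+HS and PT. Of 11 platelet markers, 2 passed downward between PT and Ctrl, where all 11 were lower and 10 did not overlap, and all 11 were higher between PT+HS and PT without passing. Markers of T cells (12) and immature red cells (17) gave 0 calls by limma at these thresholds or at an unadjusted p under 0.05. The t-test named in the methods called 1 T cell marker, between PT+HS and Ctrl. In that comparison it called 7 neutrophil, 9 B cell, 3 NK cell, 3 monocyte and 0 platelet markers (542 of 18194 genes). Between PT and Ctrl it called 4, 2, 3, 4 and 2 in the same order (293 genes). Between PT+HS and PT it called 0 markers of any type (76 genes). The mean levels of the 64 members ranged from 7.46 to 7.64 in PT+HS mice, 7.24 to 7.71 in PT mice and 7.57 to 7.60 in Ctrl mice.

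In PT replicate 2 the markers of several cell types stood apart together with the members. Relative to the other PT mice, all 14 neutrophil markers were lower there (median -1.12), as were 10 of 11 B cell markers (-1.13) and 10 of 12 T cell markers (-1.99), while 0 of 17 immature red cell markers were lower (0.68). All 9 NK cell markers were lower (-0.22), as were 7 of 11 platelet markers (-0.13) and 4 of 10 monocyte markers (0.13). For all genes with a mean of 6 to 9 log2 the median was -0.67. The mean level of the immature red cell markers was 9.18 in that animal and between 8.33 and 8.53 in the other PT mice, against 8.46 to 8.79 in PT+HS mice and 8.21 to 8.94 in Ctrl mice. The part of these shifts in the members' values was not tested.

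**Figure D5:**
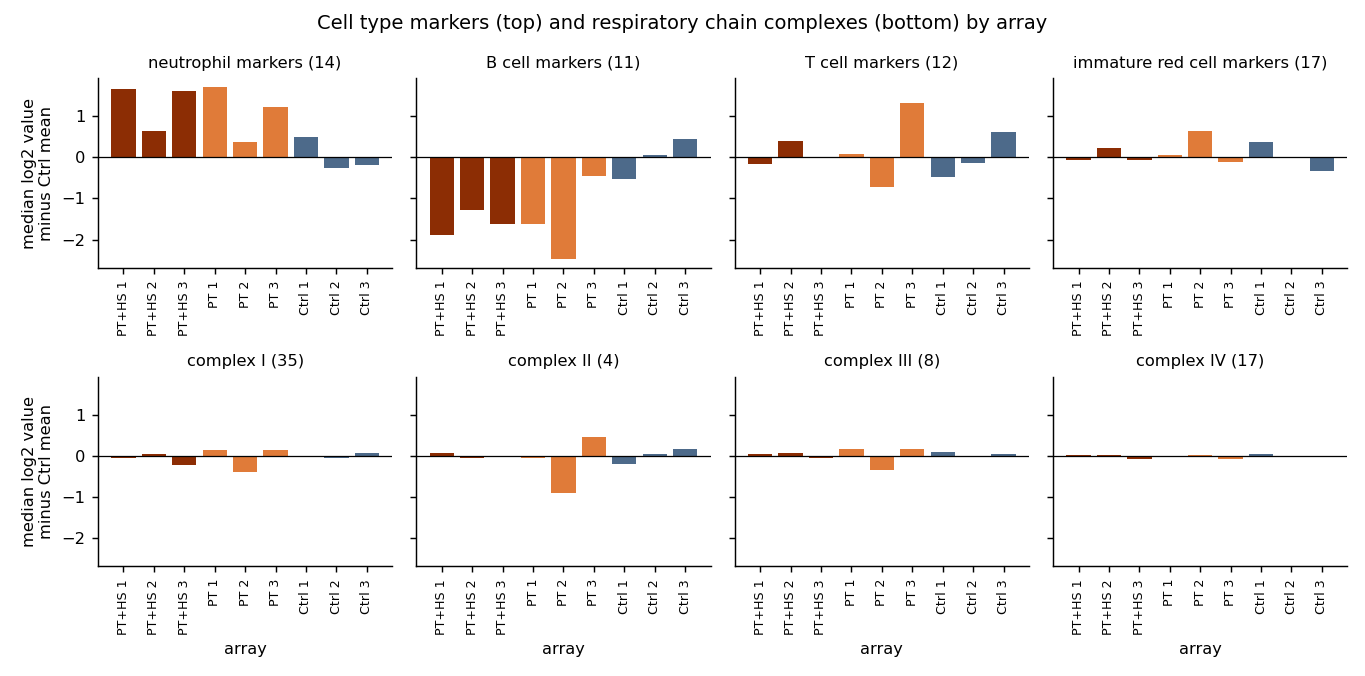
Bars are the median over a list of each gene's log2 value minus its Ctrl mean, for the 9 arrays with PT+HS, PT and Ctrl from left to right, for 4 lists of cell type markers above and the 4 complexes below on the same axis. Neutrophil markers lie up and B cell markers down in the injured mice, and the longest complex bar is that of complex II in PT 2, at -0.90.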

How the data were processed

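Whole blood RNA of 9 mice (3 PT+HS, 3 PT and 3 Ctrl) was hybridized to 1 Affymetrix array each. The deposited log2 values were made by the authors with robust multiarray average, which corrects background, applies quantile normalization between arrays and summarizes each probe set. Versions of their tools were not stated. The study's methods name the Mouse Gene 1.0 ST array, whereas the 45101 probe set names are those of an older 3′ expression array of the mouse genome, and the annotation of these names was used. Quantile normalization sets the arrays to like distributions (array medians 3.63 to 3.76), so that a shift of all genes could not be seen. Arrays carry no read depth, and their number limits the precision.

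Of the probe sets, 34958 had 1 symbol, 932 several and 9211 none. The probe set with the highest mean stood for each of 18194 genes. Groups were compared with limma 3.58.1 (R 4.3.3), with 1 mean per group over 9 arrays, moderated variances and Benjamini-Hochberg adjustment over all genes. All p-values are two-sided, and intervals are at 95%. The fit was tested on simulated data. Further fits used the t-test of the methods, the arrays of 2 groups alone, a variance trend, array weights, 2 other normalizations, a filter at the median level, other choices of probe set, a replicate block and each array left out.

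The members and lists were chosen with earlier results of these data known. Values were given for all Sdh genes, for the 4, 2 and 4 members of complexes I, III and IV with the smallest p in each comparison, for tissue forms, and for the 2 genes with the smallest p of each other mitochondrial list. Ndufs1, Ndufs4, Ndufs8, Ndufv2, Ndufv3, Ndufa3, Ndufa6, Ndufa8, Ndufa9, Ndufb5, Ndufc2, Uqcrc2 and Uqcrfs1 lie outside this rule and were chosen after their values were seen. Promoter sequence came from RefSeq (GRCm38.p6).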

Additional observations from a re-analysis of the deposited data

How the results depend on the processing

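In the reported fit and under 19 alternatives, 0 members passed an adjusted p under 0.05 in any comparison. Past the study's thresholds, array weights called 2 members between PT+HS and PT (Ndufb5 and Ndufs4, lower), where 877 of 18194 genes were called. Between PT and Ctrl they called 2 (Ndufa6 and Ndufs4, higher), where 1666 genes were called. The weights were 4.956 for PT replicate 1, 0.2268 for replicate 2 and 0.5208 for replicate 3, so that the PT mean rested mainly on replicate 1. Between PT and Ctrl, 1 member was called after repeated quantile normalization (Ndufa6, higher), as were 699 of 18194 genes. When all probe sets were tested 1 member was called there, as were 1075 of 34958 probe sets. With 1 array left out, 0 to 3 members were called between PT+HS and PT and 0 to 1 between PT+HS and Ctrl. Between PT and Ctrl it was 0 to 4. The highest counts between PT+HS and PT (4.7% of all genes) and between PT and Ctrl (6.14%) came without PT replicate 2. Between PT+HS and Ctrl the highest came without PT+HS replicate 1 (2.67% of all genes). The members' median between PT+HS and PT was -0.15 to 0.064 with 1 array left out, that between PT+HS and Ctrl -0.07 to 0.03 and that between PT and Ctrl -0.11 to 0.07. The cause was not tested.

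The animals were treated as unpaired, because the labels give replicate numbers but no pairs. Deviations of same-numbered arrays correlated at 0.06, -0.12 and -0.04 between PT+HS and PT, at 0.13, -0.03 and -0.01 between PT+HS and Ctrl, and at -0.01, 0.18 and 0.48 between PT and Ctrl. With the replicate block, 0 members passed either rule in any comparison. The medians stayed at 0.02, -0.04 and -0.07, which was fixed in advance. Each replicate number occurs once in every group, so that the block cannot change a group difference. Of all 18194 genes, 0, 21 and 2 passed the adjusted p with the block in the same order, against 0, 1 and 0 without it. At the study's thresholds 264, 693 and 743 genes passed with the block.

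Of 1002 recomputed differences of single genes, 983 kept their direction and their side of an adjusted p of 0.05, and 18 changed direction. The remaining 1, Gpd2 between PT and Ctrl with array weights (-1.02, adjusted p from limma 0.00818), came to pass the adjusted p. In that setting 448 of 18194 genes passed it. At the study's thresholds, 10 of the 1002 lost a call (Atp5j in 7, Lrpprc in 2 and Gpd2 in 1) and 17 gained one. With array weights, Sdhb was at -0.047 between PT+HS and PT and 0.025 between PT and Ctrl, and Sdhd at -0.11 between PT+HS and PT. Between PT+HS and Ctrl, repeated quantile normalization gave 0.024 for Sdhb and 0.010 for Sdhc, and the mean of probe sets 0.045 for Sdhc. The mean of probe sets gave -0.0056 for Ppargc1a between PT+HS and PT. With 1 array left out, Sdha ranged from -0.46 to 0.37 between PT+HS and PT and -0.55 to 0.28 between PT and Ctrl, Sdhb from -0.15 to 0.53, -0.17 to 0.092 (PT+HS against Ctrl) and -0.56 to 0.12, Sdhd from -0.27 to 0.53 and -0.18 to 0.62, Sdhc from -0.086 to 0.0012 between PT+HS and Ctrl and Cox6b2 from -0.056 to 0.63 there. The cause was not tested. With 3 arrays per group, the median half-width of a member's interval was 0.46 log2, so that differences within that width could be missed.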

Other observations

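Several symbols of the same families were measured only by probe sets shared with a near-identical gene or a pseudogene, so that their values belong to no single gene. One of 2 probe sets shared by Ndufa11 and Ndufa11b, accessory subunits of complex I, had 7.90, 8.14 and 7.65 in PT+HS mice, 7.95, 7.72 and 7.91 in PT mice and 8.15, 8.16 and 8.33 in Ctrl mice. All PT+HS and all PT values lay below all Ctrl values, and no test was made. The other, near the low end of the scale, had 3.35, 3.26 and 4.08 in PT+HS mice, 3.45, 3.76 and 3.75 in PT mice and 3.16, 3.46 and 3.29 in Ctrl mice, with no such order. The probe set shared by Ndufs6 and Ndufs6b had 6.27, 6.46 and 6.19 in PT+HS mice, 6.72, 6.38 and 6.56 in PT mice and 6.31, 6.04 and 6.50 in Ctrl mice, and these overlapped.

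The probe set shared by Ndufs5 and its pseudogene Ndufs5-ps had 6.55, 6.39 and 6.44 in PT+HS mice, 6.59, 5.54 and 6.69 in PT mice and 6.75, 6.27 and 6.53 in Ctrl mice. PT replicate 2 was again the lowest of the 9 animals there.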
